A study of Mus musculus with 14 samples.

Results

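The genes described here are 7 genes of fatty acid oxidation and its control, taken by symbol from the 36401 genes of a mouse small intestine RNA sequencing study: Angptl4, Pdk4, Cpt1a, Acadl, Acadm, Hadha and Ehhadh. All 7 passed the filter on low counts that left 14750 genes. Fatty acids that enter a cell are activated to acyl-CoA, carried into mitochondria through the carnitine shuttle and shortened step by step to acetyl-CoA, while peroxisomes shorten chains that mitochondria handle poorly. In the liver and in the intestinal epithelium the acetyl-CoA can be turned into ketone bodies. Many of these genes are known targets of the fatty acid receptor PPAR alpha, which is active in absorptive enterocytes. None of the 7 genes is itself an enzyme of ketone synthesis.

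The study compared epithelial cells of the ileum (5 to 8 cm from the cecum) with those of the jejunum (5 to 8 cm from the pylorus) in 3 populations from C57Bl6 mice, whose age is given as 6 to 12 weeks and whose sex as male. CD166 cells were sorted as CD44+/CD24lo/CD166+, LGR5 cells were selected by LGR5, a receptor of crypt base columnar stem cells, and crypt cells serve as the source population. Each region had 2 CD166, 2 LGR5 and 3 crypt libraries, 14 in all. The labels name no allele, reporter or treatment, and do not say whether libraries came from separate or pooled mice, so the p-values measure only the spread between these libraries.

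Total expected counts per library lay between 6295828 and 20380369. Levels are given as normalised CPM, read counts relative to the scaled library total, and a gene was called at an edgeR adjusted p under 0.05. All 8 stem cell markers were called higher in LGR5 cells and all 8 in CD166 cells than in crypt cells. Compared with LGR5 cells, 4 of 7 Paneth and 6 of 7 enteroendocrine genes were called higher in CD166 cells, where 1.61% of all genes were. The Paneth genes summed to 26600 to 47100 CPM in CD166 cells and 4470 to 7470 CPM in LGR5 cells. The enteroendocrine genes summed to 815 to 3700 CPM and 219 to 541 CPM. Alcam, which encodes CD166, was at 38.4 to 50.3 CPM in CD166 cells and 29.5 to 51.1 CPM in crypt cells. Cd24a, which encodes the CD24 antigen for which CD166 cells were sorted as low, was 3.06-fold higher in CD166 than in crypt cells. The summed level of 10 enterocyte genes was 1210 to 2130 CPM in CD166 cells and 1170 to 1750 CPM in LGR5 cells, against 6360 to 32400 CPM in crypt cells. Libraries departed from their labels in 2 ways. In the library labelled ileum crypt 3 Fabp6, a bile acid binding protein of the ileum, was at 25.8 CPM, against 25.1 CPM in jejunum crypt 1, whereas ileum crypt 1 and 2 had 2690 and 1990 CPM. Jejunum crypt 1 was itself above every other jejunal library, with 1.26 and 1.14 CPM in jejunum crypt 2 and 3 and 0.482 to 0.716 CPM in sorted ones. Among 91 pairs of libraries ileum crypt 3 and jejunum crypt 1 were the closest, with 16.6% of genes beyond counting noise, below the 37% of the next pair. Xist, the female X-inactivation transcript, stood at 201 to 1360 CPM in the 8 sorted libraries, which also held 4.59 to 35.2 CPM of the Y-linked gene Ddx3y. Among crypt libraries ileum crypt 1 (1670 CPM) and jejunum crypt 2 (1310 CPM) held Xist and no Ddx3y, and the remaining 4 had at most 3.12 CPM of Xist. Jejunum crypt 2 also carried 9920 CPM of 7 lymphocyte genes, against 4.43 to 46.9 CPM in the sorted libraries. Results of the 7 genes that the library labelled ileum crypt 3 changes are therefore given with and without it.

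The 7 genes leaned toward the jejunum, but the difference passed the test for 1 of them. With the populations weighted equally, each of the 7 had a lower fitted level in the ileum, with a median log2 fold change of -0.51, against -0.01 over all genes tested. Angptl4 was the 1 gene of 7 called lower, and 5.01% of all genes were called in either direction (2.02% lower, 2.99% higher). Within crypt, LGR5 and CD166 cells 0 of the 7 genes were called by edgeR, although 2 of 7 had an unadjusted p under 0.05 in each population. Cpt1a alone had a higher fitted level in the ileum within a population, in crypt (log2 0.14 ± 0.35) and LGR5 cells (0.03 ± 0.43). The shares of all genes called were 0% in crypt cells, 0.698% in LGR5 cells (0.129% lower, 0.569% higher) and 0.0203% in CD166 cells (0.00678% lower). In crypt cells 1899 genes had an unadjusted p under 0.05, limma-voom called 0 genes and DESeq2 called 323. Of the 7 genes DESeq2 called 1 in LGR5 cells, Angptl4 (adjusted p = 0.00786), where it called 5.69% of all genes. In crypt and CD166 cells DESeq2 called 0 of the 7, with 2.38% and 1.26% of all genes. By limma-voom 0 of the 7 were called in each, with 0% of all genes in crypt, 0.203% in LGR5 and 0.325% in CD166 cells. Without the library labelled ileum crypt 3, 3 of the 7 genes were called over all populations (Angptl4, Pdk4 and Ehhadh), 2 in crypt cells, 2 in LGR5 cells and 1 in CD166 cells. The shares of all genes called in that fit were larger too, at 8.61% over all populations, 4.17% in crypt, 2.42% in LGR5 and 0.76% in CD166 cells.

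Between sorted and crypt cells more of the 7 genes were called, as were more of all genes. Angptl4, Acadm and Ehhadh fell in LGR5 cells relative to crypt cells, 3 of 7 where 31.5% of all genes were called (18.5% lower). The same 3 genes fell in CD166 cells relative to crypt cells, where 30.1% of all genes were called (16.5% lower). The 2 comparisons share their crypt libraries. Between CD166 and LGR5 cells 0 of the 7 genes were called by edgeR and 0 had an unadjusted p under 0.05, with 1.61% of all genes called. DESeq2 and limma-voom called 0 of the 7 there as well, with 2.86% and 1.78% of all genes. A fit of those sorted libraries without the crypt libraries called 1 of the 7 genes, Pdk4, and 4.16% of all genes. The joint test of whether the regional difference varied between populations called 0 of the 7 genes by edgeR, DESeq2 or limma-voom. In edgeR 0 of the 7 had an unadjusted p under 0.05. The shares of all genes called were 0.0136% in edgeR, 0.485% in DESeq2 and 0% in limma-voom. In these bulk samples fewer cells of a type and less RNA per cell cannot be told apart.

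**Figure D1:**
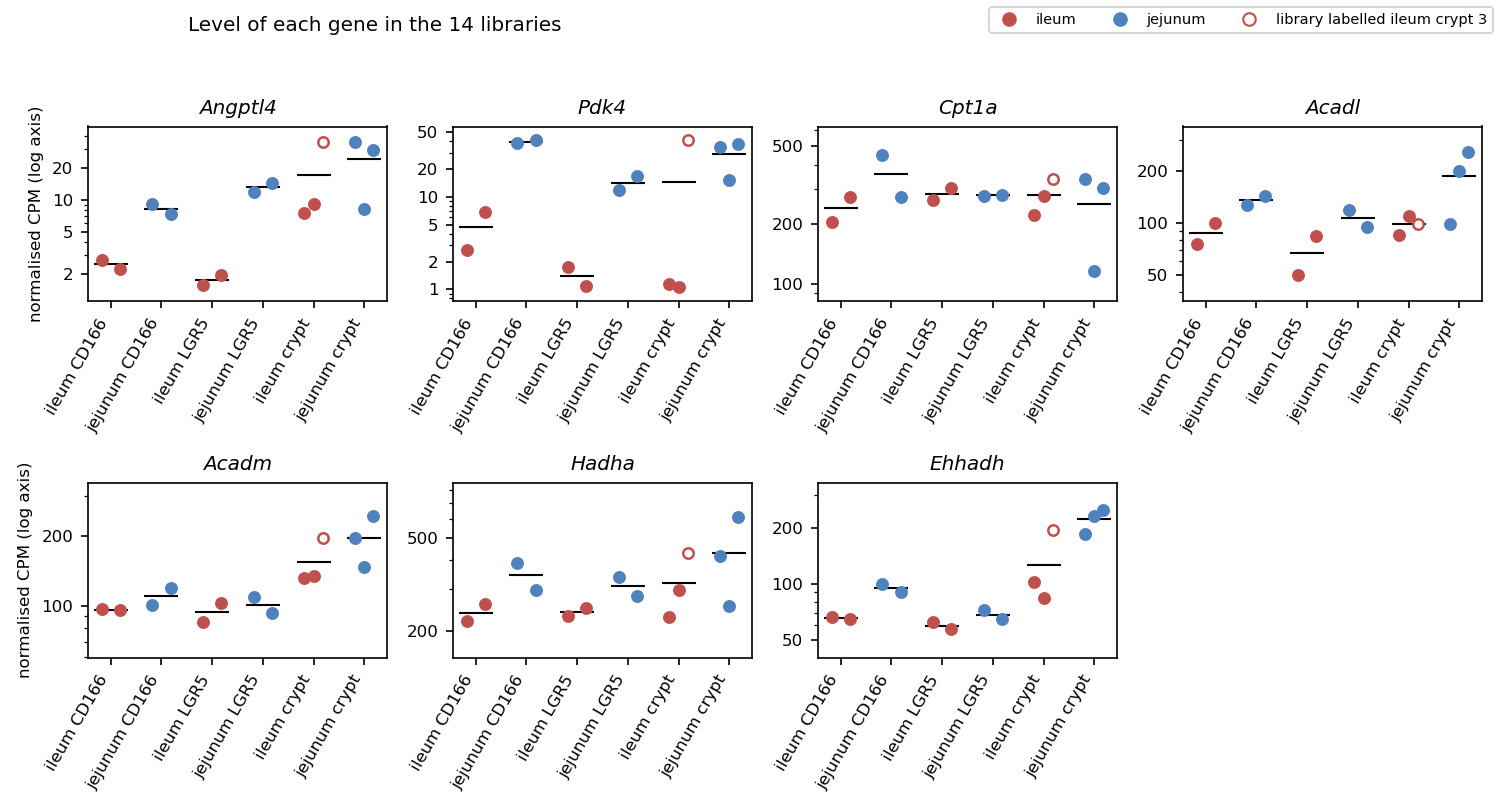
Normalised CPM (vertical log axis) of the 7 genes in each of the 14 libraries, by group along the horizontal axis; points are libraries (red ileum, blue jejunum, open red the library labelled ileum crypt 3) and black lines are group means, drawn without error bars because every library is shown. The open circle lies level with the top jejunum crypt point for Angptl4 (35.2 CPM) and above all of them for Pdk4 (40.9 CPM), while Cpt1a groups next to each other in mean level overlap.

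Angptl4 (ENSMUSG00000002289) encodes a secreted inhibitor of lipoprotein lipase, which limits the release of fatty acids from circulating lipoproteins. In LGR5 cells its level was 1.56 and 1.94 CPM in the ileum, against 11.9 and 14.3 CPM in the jejunum. In CD166 cells it was 2.68 and 2.23 CPM in the ileum, against 9.02 and 7.29 CPM in the jejunum. In crypt cells it was 7.52, 9.04 and 35.2 CPM in the ileum, against 35.2, 8.09 and 29.8 CPM in the jejunum. All ileal sorted libraries were low and all jejunal sorted libraries higher, with no overlap, while the crypt groups overlapped, with ileum crypt 3 high and jejunum crypt 2 low. The ileal values in sorted cells rest on 17 to 35 counts per library, the jejunal ones on 98 to 175.

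Over all populations Angptl4 was 3.28-fold lower in the ileum than in the jejunum (log2 -1.71 ± 0.42 SE, adjusted p = 0.0398). The difference was -2.90 ± 0.81 in LGR5 cells (adjusted p = 0.121), -1.73 ± 0.77 in CD166 cells (adjusted p = 0.766) and -0.50 ± 0.59 in crypt cells (adjusted p = 0.777). When the library labelled ileum crypt 3 was left out, the LGR5 difference passed the test (-2.90 ± 0.58, adjusted p = 0.0325), the crypt difference was -1.57 ± 0.51 (adjusted p = 0.134) and the CD166 difference -1.73 ± 0.55 (adjusted p = 0.319). Fitted with the LGR5 libraries alone, the LGR5 difference of -2.90 ± 0.32 also passed (adjusted p = 0.0011), and with the CD166 libraries alone that in CD166 cells did (-1.72 ± 0.39, adjusted p = 0.0222). The pooled call was kept without ileum crypt 1 (adjusted p = 0.0452), without ileum crypt 3 (log2 -2.07 ± 0.32, adjusted p = 0.0028) or without jejunum crypt 2 (adjusted p = 0.0155). It was lost when any one of the other 11 libraries was left out, with adjusted p-values of 0.0521 to 0.136 and log2 fold changes of -1.60 to -1.77. It was also lost with no filter on low counts (adjusted p = 0.0695) and under limma-voom (adjusted p = 0.0822), and was kept under DESeq2 (adjusted p = 0.00115). Relative to crypt cells Angptl4 fell 4.60-fold in CD166 cells (log2 -2.20 ± 0.51, adjusted p = 0.00861) and 4.29-fold in LGR5 cells (-2.10 ± 0.52, adjusted p = 0.0115). Leaving out the library labelled ileum crypt 3 gave log2 values of -1.67 ± 0.38 in CD166 cells (adjusted p = 0.01) and -1.57 ± 0.38 in LGR5 cells (adjusted p = 0.0141). The LGR5 call was lost without ileum LGR5 1 (adjusted p = 0.0613) or jejunum LGR5 1 (adjusted p = 0.054), where the log2 fold changes were -2.04 and -2.06.

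Pdk4 (ENSMUSG00000019577) encodes a kinase that switches off pyruvate dehydrogenase, sparing glucose when fatty acids are burned. In CD166 cells its level was 2.68 and 6.82 CPM in the ileum, against 38.1 and 41.2 CPM in the jejunum. In LGR5 cells it was 1.75 and 1.08 CPM in the ileum, against 11.9 and 16.7 CPM in the jejunum. In crypt cells it was 1.14, 1.06 and 40.9 CPM in the ileum, against 35, 15.3 and 37.5 CPM in the jejunum. Ileal and jejunal libraries did not overlap in either sorted population. In crypt cells the library labelled ileum crypt 3 was above all jejunal libraries and the other ileal libraries were far below them. The lowest values rest on few reads: 10 and 7 counts in ileum crypt 1 and 2, and 19 and 10 counts in the ileal LGR5 libraries, against 85 to 688.48 counts in the jejunal libraries.

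With all libraries Pdk4 was 5.52-fold lower in the ileum but did not pass the test (log2 -2.46 ± 0.73, adjusted p = 0.085). It passed under limma-voom (-3.10 ± 0.66, adjusted p = 0.0251) and not under DESeq2, where the 2 genes called were Angptl4 and Acadl. When the library labelled ileum crypt 3 was left out the log2 fold change was -3.70 ± 0.32 over all populations (adjusted p = 0.000107), -4.73 ± 0.58 in crypt cells (adjusted p = 0.00222), -3.33 ± 0.55 in LGR5 cells (adjusted p = 0.0164) and -3.04 ± 0.51 in CD166 cells (adjusted p = 0.0282). With all libraries the values were -1.02 ± 1.01 in crypt, -3.32 ± 1.44 in LGR5 and -3.04 ± 1.33 in CD166 cells, with adjusted p-values of 0.739, 0.328 and 0.75. In the sorted libraries alone, a fit chosen after the data were seen, Pdk4 was lower in the ileum by log2 -3.19 ± 0.28 (adjusted p = 3.4e-05) and Angptl4 by -2.33 ± 0.24 (adjusted p = 3.4e-05). That fit called 10.4% of all genes. The enterocyte genes differed between these libraries as well. Their mean log2 CPM was 4.78 to 5.59 in the ileal and 6.1 to 7.18 in the jejunal libraries, with no overlap, and their summed level 1170 to 1320 CPM in the ileal and 1240 to 2130 CPM in the jejunal ones. The median log2 fold change of the 10 genes was -1.77 in LGR5 and -1.51 in CD166 cells, where 1 was called higher in LGR5 cells and none in CD166 cells. The 7 goblet cell genes summed to 7260 and 19400 CPM in ileal LGR5 cells, against 3140 and 1780 CPM in jejunal ones (median log2 fold change 2.53), and had a median of 0.56 in CD166 cells. The part of either list in the differences of Pdk4 and Angptl4 was not tested.

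Against crypt cells Pdk4 stood at log2 -2.19 ± 0.90 in LGR5 cells (adjusted p = 0.0864) and -0.58 ± 0.81 in CD166 cells (adjusted p = 0.619). The LGR5 difference passed the test without ileum crypt 1 (-2.46 ± 0.76, adjusted p = 0.0347) or ileum crypt 2 (-2.48 ± 0.77, adjusted p = 0.0368). Leaving out the library labelled ileum crypt 3 brought it to -0.33 ± 0.38 (adjusted p = 0.541). The CD166 difference turned round without the library labelled ileum crypt 3, to 1.27 ± 0.36 (adjusted p = 0.0261). Between CD166 and LGR5 cells Pdk4 had a log2 fold change of 1.61 ± 0.94, a 3.05-fold difference that did not pass (adjusted p = 0.666). Fitted without the crypt libraries the same log2 fold change of 1.61 had a standard error of 0.28 and passed (adjusted p = 0.00743).

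Sequences just before the transcription start are shown for Pdk4, whose regional log2 fold change was the largest of the 7 genes, and for Cpt1a and Acadm, where it was the smallest. All of them are known in mammals as PPAR alpha targets. RefSeq promoter sequences (GRCm38.p6, not the mm9 build of the counts) matched 6 of the 7 genes, the exception being Angptl4. Each is given 5′ to 3′ on the gene's strand and ends at the base before the start. Capitals mark AGGTCA or its reverse complement TGACCT, the hexamer that nuclear receptors bind. The intervals are chr6:5496279-5496528 on the minus strand for Pdk4, chr19:3323051-3323300 on the plus strand for Cpt1a and chr3:153944644-153944893 on the minus strand for Acadm.
Pdk4: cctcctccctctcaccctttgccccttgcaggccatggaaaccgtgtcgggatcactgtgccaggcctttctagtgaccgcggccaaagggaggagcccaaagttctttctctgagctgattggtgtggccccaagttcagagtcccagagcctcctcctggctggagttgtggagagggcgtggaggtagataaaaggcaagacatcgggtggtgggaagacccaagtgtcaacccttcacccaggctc
Cpt1a: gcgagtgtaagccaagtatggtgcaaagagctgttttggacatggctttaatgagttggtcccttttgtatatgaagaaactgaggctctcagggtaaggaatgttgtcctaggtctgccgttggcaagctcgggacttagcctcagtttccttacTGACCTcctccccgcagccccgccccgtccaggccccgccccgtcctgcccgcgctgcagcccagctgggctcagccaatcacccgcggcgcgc
Acadm: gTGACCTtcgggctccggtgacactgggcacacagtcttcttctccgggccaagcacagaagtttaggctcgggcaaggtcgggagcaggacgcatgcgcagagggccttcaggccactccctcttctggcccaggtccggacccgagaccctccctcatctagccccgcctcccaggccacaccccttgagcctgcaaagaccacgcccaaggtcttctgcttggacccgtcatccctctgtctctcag

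The Pdk4 window held no hexamer, Cpt1a held 1 that lies 94 bases before the start, and Acadm held 1 that lies 249 bases before it. Across the 6 genes 2 windows held the hexamer on either strand, and 14% of 32851 promoter windows of the same 250 bases did. The direct repeat of AGGTCA with 1 base between the copies, the arrangement bound by PPAR and RXR dimers, was in 0 of the 6 windows with up to 2 mismatches on either strand, and in 3.24% of all windows. Exact copies were in 0.0335% of all windows. The letters describe these windows alone, since known response elements often lie further upstream or within introns.

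Cpt1a (ENSMUSG00000024900) encodes carnitine palmitoyltransferase 1A, the outer membrane enzyme that controls entry of long-chain fatty acids into mitochondria. In CD166 cells its level was 206 and 276 CPM in the ileum, against 447 and 275 CPM in the jejunum. In LGR5 cells it was 264 and 306 CPM in the ileum, against 278 and 282 CPM in the jejunum. The crypt level was 224, 277 and 341 CPM in the ileum, against 340, 116 and 306 CPM in the jejunum. Every pair of groups that stood next to each other in the order of mean levels overlapped, and jejunum crypt 2 was the low one. The difference between regions was -0.14 ± 0.23 on the log2 scale (adjusted p = 0.886), and the differences from crypt cells were 0.14 ± 0.27 in CD166 cells (adjusted p = 0.722) and 0.08 ± 0.28 in LGR5 cells (adjusted p = 0.851). The sign of the crypt comparisons is set by single libraries: without jejunum crypt 2 the values were -0.06 ± 0.18 in CD166 cells and -0.11 ± 0.18 in LGR5 cells. No difference in Cpt1a passed the test.

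The 3 mitochondrial enzymes that act after entry were described next. Acadl (ENSMUSG00000026003), the long-chain acyl-CoA dehydrogenase, was at 75.5 and 100 CPM in ileal CD166 cells, against 127 and 144 CPM in jejunal ones. In LGR5 cells Acadl was at 50.2 and 84.2 CPM in the ileum, against 119 and 94.9 CPM in the jejunum. In crypt cells it was at 84.8, 110 and 99.1 CPM in the ileum, against 98.9, 201 and 258 CPM in the jejunum. Ileal and jejunal levels did not overlap in either sorted population, and in crypt cells only the first jejunal library lay within the ileal range. Acadl stood 1.67-fold lower in the ileum, short of the threshold (log2 -0.74 ± 0.21, adjusted p = 0.0703). It passed without jejunum crypt 1 (-0.84 ± 0.15, adjusted p = 0.012), under DESeq2 (adjusted p = 0.0114) and in the sorted libraries alone (-0.66 ± 0.17, adjusted p = 0.0366). Against crypt cells it stood at -0.31 ± 0.25 in CD166 cells (adjusted p = 0.372) and -0.67 ± 0.25 in LGR5 cells (adjusted p = 0.0629), and the LGR5 difference passed without jejunum crypt 1 (-0.82 ± 0.19, adjusted p = 0.00823) or ileum LGR5 2 (-0.92 ± 0.28, adjusted p = 0.0444).

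Acadm (ENSMUSG00000062908), the medium-chain acyl-CoA dehydrogenase, separated the sorted from the crypt cells rather than the regions. Its level was 96.9 and 95.7 CPM in ileal CD166 cells, against 101 and 120 CPM in jejunal ones. In LGR5 cells it was 85.2 and 103 CPM in the ileum, against 109 and 92.7 CPM in the jejunum. Crypt cells had 132, 135 and 196 CPM in the ileum, against 197, 147 and 244 CPM in the jejunum. Every sorted library was below every crypt library. Ileal and jejunal levels overlapped in crypt and LGR5 cells and did not in CD166 cells. Acadm fell 1.69-fold in CD166 cells (log2 -0.75 ± 0.17, adjusted p = 0.00756) and 1.79-fold in LGR5 cells (-0.84 ± 0.17, adjusted p = 0.00467) relative to crypt cells. Both calls were kept in 14 of 14 fits that left out 1 library. The regional difference was -0.22 ± 0.14 (adjusted p = 0.523).

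Hadha (ENSMUSG00000025745) encodes the alpha subunit of the mitochondrial trifunctional protein, which carries out later steps of the long-chain cycle. Its level was 219 and 259 CPM in ileal CD166 cells, against 391 and 298 CPM in jejunal ones, and 231 and 251 CPM in ileal LGR5 cells, against 339 and 281 CPM in jejunal ones. In crypt cells Hadha was at 229, 297 and 431 CPM in the ileum, against 415, 255 and 612 CPM in the jejunum. The regions did not overlap in sorted cells and overlapped in crypt cells. No difference passed the test: log2 -0.44 ± 0.21 between ileum and jejunum (adjusted p = 0.308), -0.36 ± 0.25 for CD166 against crypt cells (adjusted p = 0.287) and -0.43 ± 0.25 for LGR5 against crypt cells (adjusted p = 0.2). The LGR5 difference passed without jejunum crypt 2, at -0.59 ± 0.20 (adjusted p = 0.0376).

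Ehhadh (ENSMUSG00000022853) encodes the peroxisomal bifunctional enzyme, which combines a hydratase and a dehydrogenase of the peroxisomal cycle. In CD166 cells its level was 66.6 and 65.1 CPM in the ileum, against 100 and 90.7 CPM in the jejunum. In LGR5 cells it was 62.2 and 57.6 CPM in the ileum, against 72.1 and 65.0 CPM in the jejunum. Crypt cells had 102, 84.4 and 194 CPM in the ileum, against 185, 232 and 248 CPM in the jejunum. The regions did not overlap within either sorted population, although ileal CD166 and jejunal LGR5 levels did, and in crypt cells the library labelled ileum crypt 3 alone reached the jejunal range. Relative to crypt cells Ehhadh fell 2.12-fold in CD166 cells (log2 -1.08 ± 0.21, adjusted p = 0.00363) and 2.62-fold in LGR5 cells (-1.39 ± 0.22, adjusted p = 0.00103), in 14 of 14 fits that left out 1 library. Without the library labelled ileum crypt 3 these values were -0.86 ± 0.12 in CD166 and -1.16 ± 0.13 in LGR5 cells. Between ileum and jejunum the log2 fold change was -0.51 ± 0.17 (adjusted p = 0.131). When the library labelled ileum crypt 3 was left out it was -0.66 ± 0.10 (adjusted p = 0.00289), and -1.25 ± 0.17 in crypt cells (adjusted p = 0.00427), where all libraries gave -0.80 ± 0.26 (adjusted p = 0.261).

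**Figure D2:**
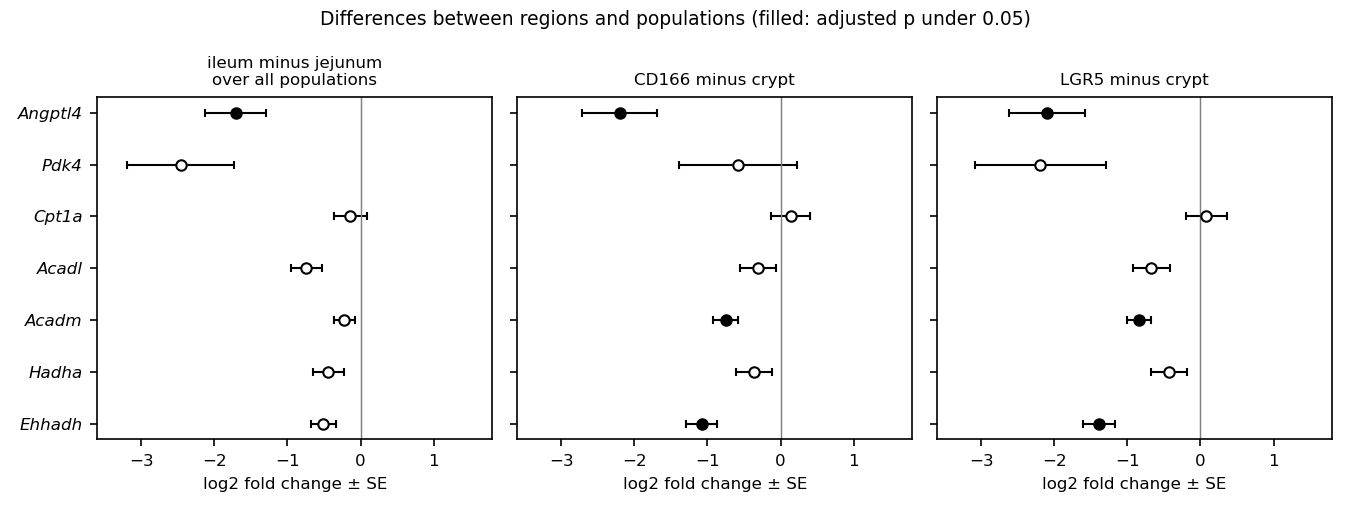
Log2 fold changes with standard errors (horizontal axis) of the 7 genes (vertical axis) for ileum minus jejunum, CD166 minus crypt and LGR5 minus crypt, from 1 edgeR fit of all 14 libraries; filled points have an adjusted p under 0.05. Angptl4, Acadm and Ehhadh lie below 0 in both sorted populations against crypt cells, and all 7 genes lie below 0 for ileum minus jejunum.

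**Figure D3:**
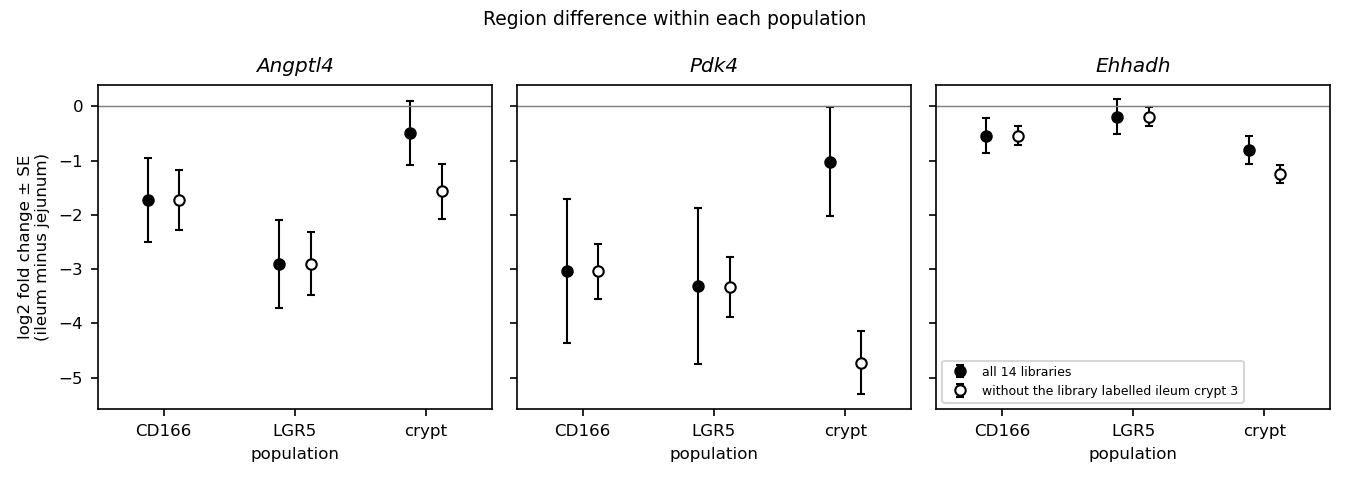
Ileum minus jejunum log2 fold changes with standard errors (vertical axis) in CD166, LGR5 and crypt cells (horizontal axis) for Angptl4, Pdk4 and Ehhadh, with all 14 libraries (filled) and without the library labelled ileum crypt 3 (open). For Pdk4 in crypt cells the value is -1.02 with that library and -4.73 without it, while the LGR5 and CD166 values keep their place and have shorter error bars.

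Ordered by mean level, Angptl4 was lowest in ileal LGR5 cells (1.75 ± 0.265 CPM, SD, n = 2), then ileal CD166 cells (2.45 ± 0.316), jejunal CD166 cells (8.16 ± 1.22), jejunal LGR5 cells (13.1 ± 1.7), ileal crypt cells (17.3 ± 15.6, n = 3) and jejunal crypt cells (24.4 ± 14.4, n = 3). Only the last 3 of these groups overlapped with a neighbour. Pdk4 began with the same ileal sorted groups, at 1.41 ± 0.474 CPM in LGR5 and 4.75 ± 2.93 CPM in CD166 cells, but ended with jejunal CD166 cells at 39.7 ± 2.22 CPM, above every jejunal crypt library. For Ehhadh both crypt groups were on top, at 127 ± 59.1 CPM in the ileum and 222 ± 33.0 CPM in the jejunum, and jejunal CD166 cells followed at 95.4 ± 6.72 CPM.

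The other genes of the pathway were read from lists of mitochondrial, peroxisomal, ketone, pyruvate dehydrogenase, regulatory, uptake and further PPAR alpha target genes. Between ileum and jejunum few of them passed. Of all genes 5.01% were called there (2.02% lower, 2.99% higher), and 2606 of 14750 had an unadjusted edgeR p under 0.05. Of 14 further mitochondrial beta-oxidation genes 0 were called by edgeR, although 10 had an unadjusted p under 0.05, and their median log2 fold change was -0.44. Of 16 further peroxisomal genes 1 fell, Pex11a, a factor of peroxisome division (log2 -0.70 ± 0.16, adjusted p = 0.0312). The 6 genes of ketone synthesis and use had a median of -0.39, with 1 of them above 0 and 3 at an unadjusted p under 0.05. The 1 called was the 1 above 0, Oxct1, which activates ketone bodies for burning. It averaged 263 CPM in ileal and 171 CPM in jejunal libraries (0.63 ± 0.12, adjusted p = 0.0135). Of 11 genes of pyruvate dehydrogenase, its kinases and pyruvate import 0 were called by edgeR and 4 had an unadjusted p under 0.05. Of 12 regulatory genes Creb3l3, a transcription factor of lipid metabolism, was 9.31-fold lower (-3.22 ± 0.39, adjusted p = 0.00328). Acaca, a gene of malonyl-CoA synthesis, was 1.5-fold higher (0.58 ± 0.15, adjusted p = 0.0441). The receptor gene Ppara itself stood at -0.57 ± 0.25 (adjusted p = 0.273). Of 15 uptake and activation genes 2 fell, Fabp1 (-3.42 ± 0.77, adjusted p = 0.0284) and the acyl-CoA synthetase gene Acsl1 (-0.76 ± 0.18, adjusted p = 0.034). Of 6 further PPAR alpha targets 1 fell, the lipid droplet gene Cidec (-1.75 ± 0.37, adjusted p = 0.023). Enterocyte markers moved in the same comparison, 6 of 10 lower and 1 higher in the ileum with a median of -1.16, and their part in these differences was not tested.

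Against crypt cells, where 16.5% of all genes were called lower in CD166 and 18.5% in LGR5 cells, the peroxisomal genes fell most widely. In CD166 cells 13 of 16 fell, with a median log2 fold change of -1.11 against 0.02 over all genes, and in LGR5 cells 13 of 16 fell, with a median of -1.18 against -0.01. The thiolase and lipid carrier gene Scp2 fell in both, with log2 fold changes of -1.59 ± 0.25 in CD166 and -1.79 ± 0.25 in LGR5 cells. The long-chain transporter gene Abcd3 had -0.84 ± 0.22 in CD166 and -1.03 ± 0.22 in LGR5 cells. Hsd17b4, which encodes another bifunctional enzyme of peroxisomes, had -1.22 ± 0.34 in CD166 and -1.15 ± 0.33 in LGR5 cells. Over the fits that left out 1 library the counts called were 9 to 14 in CD166 and 12 to 15 in LGR5 cells. Fewer mitochondrial genes passed: 5 of 14 fell in CD166 cells (median -0.42) and 7 of 14 in LGR5 cells (median -0.54). Hadh, the short-chain dehydrogenase of the cycle, averaged 436 CPM in CD166 and 420 CPM in LGR5 cells, against 823 CPM in crypt cells (-0.88 ± 0.18 and -0.93 ± 0.18). Acadvl, the very long-chain dehydrogenase, had log2 fold changes of -0.76 ± 0.24 in CD166 and -0.77 ± 0.24 in LGR5 cells. Cpt2, the inner membrane partner of CPT1, had -0.97 ± 0.31 in CD166 and -1.03 ± 0.31 in LGR5 cells.

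The mitochondrial counts moved with single libraries, and the shares of all genes called moved with them. For CD166 cells the count was 8 without jejunum crypt 2 (35.3% of all genes). It was 3 without ileum crypt 3 (25.3%) or jejunum crypt 3 (28.5%). For LGR5 cells it was 12 without jejunum crypt 2 (34.8%) and 4 without ileum crypt 3 (26.6%). Counts and shares were also smaller when 1 sorted library of the population was left out, which leaves 1 library in its group. All 10 enterocyte markers were called lower in both sorted populations, with median log2 fold changes of -4.02 in CD166 and -4.89 in LGR5 cells. The Xist and lymphocyte levels given above also differed between sorted and crypt libraries, and the part of any of these in the falls was not tested.

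**Figure D4:**
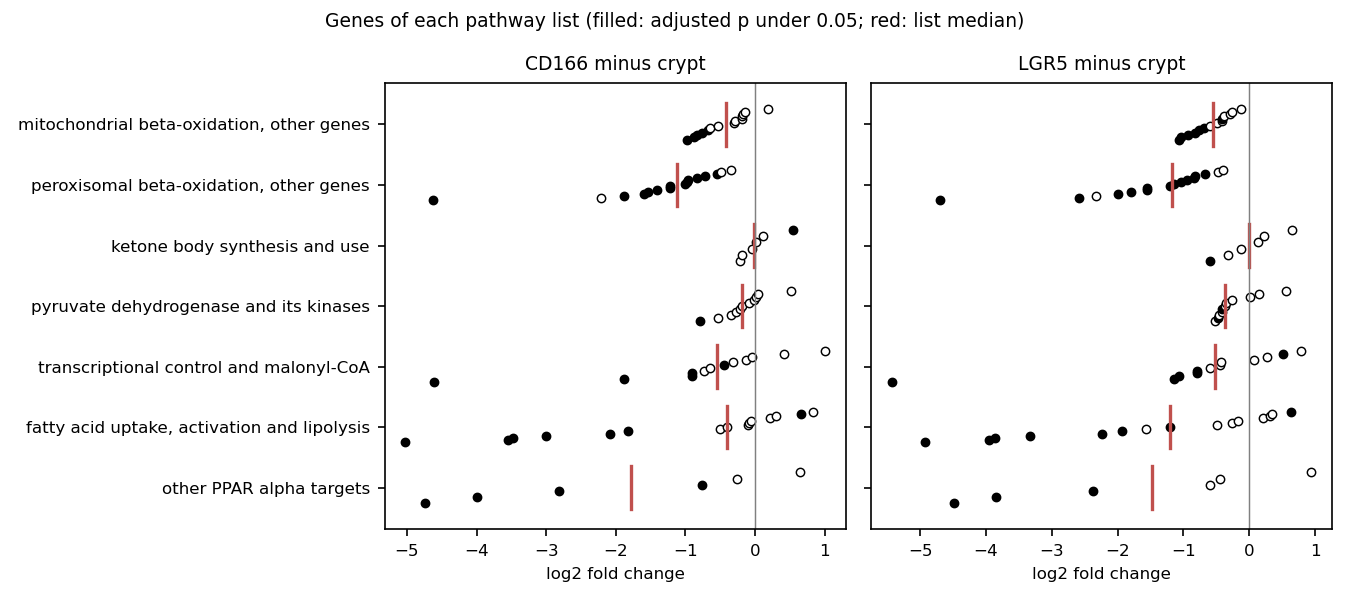
Log2 fold changes of every tested gene of each pathway list (horizontal axis; lists run down the page) for CD166 minus crypt and LGR5 minus crypt, with called genes filled and the list median as a red line. The peroxisomal genes lie below 0 in both sorted populations, with medians of -1.11 in CD166 and -1.18 in LGR5 cells.

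Some genes of transcriptional control and of fatty acid uptake fell in sorted cells, where 16.5% of all genes were called lower in CD166 and 18.5% in LGR5 cells. Creb3l3 averaged 12.9 CPM in CD166 and 10.8 CPM in LGR5 cells, against 211 CPM in crypt cells (log2 -4.61 ± 0.49 and -5.43 ± 0.53). The nuclear receptor gene Esrra, a regulator of mitochondrial genes, had log2 fold changes of -0.91 ± 0.13 in CD166 and -1.06 ± 0.13 in LGR5 cells. The receptor partner gene Rxra had -0.91 ± 0.24 in CD166 and -0.79 ± 0.24 in LGR5 cells. Of 12 regulatory genes 5 fell in CD166 cells, and 5 fell and 1 rose (Acaca, 0.52 ± 0.17) in LGR5 cells. Of 15 uptake and activation genes 6 fell and 1 rose in CD166 cells, and 7 fell and 1 rose in LGR5 cells. Fabp2, the intestinal fatty acid binding protein, averaged 311 CPM in CD166 and 256 CPM in LGR5 cells, against 4490 CPM in crypt cells. The gene that rose in both was Acsl3, an acyl-CoA synthetase (0.66 ± 0.18 in CD166 and 0.64 ± 0.18 in LGR5 cells), which falls outside the naming rule and was chosen after its values were seen. Oxct1 rose in CD166 cells (0.54 ± 0.13, adjusted p = 0.0115). Of 11 pyruvate dehydrogenase genes 1 fell in CD166 cells, the kinase gene Pdk2 (-0.79 ± 0.24, adjusted p = 0.027), and 2 fell in LGR5 cells, the subunit genes Dld (-0.48 ± 0.14) and Pdhb (-0.41 ± 0.13). Those counts are no larger a share than that of all genes called lower. Of 6 further PPAR alpha targets 4 fell in CD166 and 3 in LGR5 cells, among them the pantetheinase gene Vnn1 (-2.81 ± 0.21 in CD166 and -2.37 ± 0.20 in LGR5 cells). Between CD166 and LGR5 cells edgeR called 0 genes in these lists, with 0 to 2 per list at an unadjusted p under 0.05.

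The genes whose log2 levels followed each of the 7 most closely over the 14 libraries were found among 9895 genes, as a description in which the libraries and their groups are shared. Pdk4 was followed by Taco1 (Pearson r = 0.969), Mtfp1 (0.919) and Adh1 (0.903), and Angptl4 by Pcsk5 (0.964), Slc7a8 (0.954) and Daglb (0.952). For Ehhadh they were Mdh1 (0.987), Slc23a2 (0.986) and Got1 (0.981), and for Acadm Lzic (0.982), Ckmt1 (0.974) and Aldh9a1 (0.967). Hadha went with Etfdh (0.967), which passes electrons from the acyl-CoA dehydrogenases to the respiratory chain, Sod2 (0.962) and Immt (0.957). Cpt1a went with Dag1 (0.957), Parm1 (0.95) and Prepl (0.947), and Acadl with Akr1c12 (0.933), Mrpl43 (0.9) and the peroxisomal and mitochondrial isomerase gene Ech1 (0.896).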

How the data were processed

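RNA sequencing libraries of 14 samples were analysed: crypt, LGR5 and CD166 cells of ileum and jejunum. Per the labels, libraries were made with the TruSeq kit and sequenced single-end for 50 bases on a HiSeq. Of the reads' processing, the submitters' processing notes give mm9 and DESeq with no version; aligner, counter and annotation: not given in the sources used here. The authors deposited expected counts per gene without scaling, in files named for RPKM: 50.6% of the values above 0 were whole numbers (tolerance 0.001) and 80.3% were steps of 0.02 (tolerance 4e-04). The deposited log2 values were not used.

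Expected counts were rounded and filtered with filterByExpr (minimum count 10, minimum total 15) in edgeR 4.0.16 (R 4.3.3), which kept 14750 genes, and scaled by TMM. A robust quasi-likelihood model held 1 mean for each of the 6 groups. Regional differences were averaged over populations and taken within each, and population differences were averaged over regions. Benjamini-Hochberg adjustment ran over the 14750 genes. Adjusted p-values come from edgeR except where DESeq2 or limma-voom is given. Standard errors were taken as the fold change on the log2 scale over the root of the F statistic. The labels state no pairing of libraries, so no block was used. Among same-numbered libraries 8 of 31 pairs had deviations from the group means correlated above 0.1. In groups of 2 libraries these deviations mirror each other, so that count cannot decide whether libraries pair. Ileum crypt 1 and jejunum crypt 2, which carry different numbers, correlated at 0.62. The script was tested on simulated data of this design.

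The 7 genes, the pathway lists and the marker lists were chosen with earlier results of these data known. Of 84 list genes, 4 did not pass the filter. The text names the 7 genes, of each list at most 4 called genes per comparison in order of mean level, the 3 genes most like each of the 7 (mean log2 CPM at least 3), and region and sort markers. Some genes that this rule names are not reported here. Alternatives were DESeq2 size factors, DESeq2 1.42.0, limma-voom (limma 3.58.1), filtering off or at 1 CPM in 4 libraries, the compared groups alone, a replicate block, leaving out each library and leaving out a pair of libraries. Reads of genes with near-identical copies, and of overlapping or antisense genes, may be shared, since strand and counting are not stated.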

Additional observations from a re-analysis of the deposited data

Results flagged for a closer look

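Angptl4 differed between CD166 and LGR5 cells in opposite directions in the 2 regions. In the ileum it was 2.68 and 2.23 CPM in CD166 cells, against 1.56 and 1.94 CPM in LGR5 cells, a log2 ratio of mean CPM of 0.49. In the jejunum it was 9.02 and 7.29 CPM in CD166 cells, against 11.9 and 14.3 CPM in LGR5 cells, a log2 ratio of -0.69. Neither pair of groups overlapped. The edgeR test of the difference between the regions gave 1.17 ± 1.09 on the log2 scale (adjusted p = 0.935), so the change of direction did not pass.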

How the results depend on the processing

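Of 1127 log2 fold changes of the 7 genes under alternatives, 1050 kept their direction and side of the threshold, 42 newly passed, 15 no longer passed and 20 changed sign. Between ileum and jejunum over all populations 1 of the 7 genes was called, with 5.01% of all genes. The count was 0 with no filter (2.92% of all genes), 2 under DESeq2 (9.57%) and 4 with a replicate block (6.26%). It was 4 without the alike pair (jejunum crypt 1 and the library labelled ileum crypt 3), where 9.53% of all genes were called. In the sorted libraries alone it was 4 (10.4%), and with 1 crypt library left out 0 to 3 (3.31% to 8.61%). In crypt cells the count went to 3 without the alike pair (5.87% of all genes) and 0 to 2 with 1 crypt library left out (0% to 4.17%). In LGR5 cells it was 1 under DESeq2 (5.69% of all genes), 2 with the compared groups alone (12.2%) and 2 without the alike pair (2.71%). It was 1 without the Xist-high crypt pair (ileum crypt 1 and jejunum crypt 2), where 3.73% of all genes were called. With 1 crypt library left out it was 0 to 2 (0.129% to 2.6%). In CD166 cells it was 2 with the compared groups alone (4.14% of all genes) and 1 without the alike pair (0.965%). With 1 crypt library left out it was 0 to 1 (0% to 0.76%). For CD166 minus LGR5 it was 1 with the compared groups alone (4.16% of all genes). For LGR5 minus crypt it was 5 without the Xist-high pair, where 37.3% of all genes were called, against 3 and 31.5% with all libraries.

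Signs changed for Cpt1a without the Xist-high pair, at -0.10 for CD166 minus crypt, -0.17 for LGR5 minus crypt and -0.06 for ileum minus jejunum in crypt. Pdk4 for CD166 minus crypt was 0.29 under limma-voom, 1.01 with the replicate block and 1.34 without the alike pair (adjusted p = 0.0283). With 1 library left out, Cpt1a ranged from -0.08 to 0.28 for CD166 minus crypt, -0.11 to 0.21 for LGR5 minus crypt, -0.15 to 0.21 for CD166 minus LGR5, -0.20 to 0.41 between regions in crypt and -0.09 to 0.13 in LGR5 cells. Acadm between regions in LGR5 cells ranged from -0.25 to 0.03, Hadha for CD166 minus LGR5 from -0.05 to 0.15 and Pdk4 for CD166 minus crypt from -1 to 1.27. The causes were not tested.

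The replicate block, whose numbers are not stated to pair the libraries, gave Pdk4 -3.04 ± 0.58 (adjusted p = 0.0152) and Angptl4 -1.80 ± 0.34 (adjusted p = 0.0137) between regions. The block fit called 923 of all genes there, or 6.26%. Over all genes the region call count of 739 was 1410 under DESeq2, 1402 without the alike pair, 1224 without the Xist-high pair, 1440 in the sorted libraries alone and 138 to 1269 with 1 library left out. In crypt cells, from 0, it was 323, 3 with the block, 863, 83 and 0 to 614 in the matching fits. In LGR5 cells, from 103, it was 773 under DESeq2, 30 under limma-voom, 254 with the block, 1574 with the compared groups alone, 399 and 535 without the pairs and 2 to 376. In CD166 cells, from 3, it was 186, 48, 31, 571, 142, 73 and 0 to 112 in the same order, and 13 with no filter. The interaction count of 2 was 70 under DESeq2, 0 under limma-voom and with the block, 33 without the Xist-high pair and 0 to 15. CD166 minus LGR5, from 238, was 421 under DESeq2, 575 with the compared groups alone, 402 without the Xist-high pair and 85 to 295. With 1 library left out LGR5 minus crypt ranged from 2421 to 5032 and CD166 minus crypt from 2769 to 5112. Groups of 2 or 3 libraries and as few as 7 counts of Pdk4 in a library limit the precision of the low genes.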
